A study of Homo sapiens with 3 samples.

Results

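Nuclear pore and transport receptor genes were followed in unstressed HEK-293T cells through 165 probe sets of 57 genes, out of 54675 probe sets of an Affymetrix U133 Plus 2.0 array. Members were the probe sets listed for 1 gene alone whose symbol was NUP, KPNA or IPO followed by a number, or 1 of 25 further names: the importin KPNB1, the exportins XPO1, XPO4, XPO6, XPO7, XPOT and CSE1L, the transportins TNPO1, TNPO2 and TNPO3, the Ran genes RAN, RANBP1, RANBP2, RANBP3, RANGAP1, RCC1 and NUTF2, the mRNA export genes NXF1 and NXT1, and the pore genes TPR, POM121, NDC1, RAE1, AAAS and SEC13. Of these names, NUTF2 and NXF1 had no probe set listed for them alone. On the whole array, 41097 probe sets were listed for 1 gene, covering 19775 genes.

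HEK-293T is a transformed human embryonic kidney line, which in these labels carries an inserted temperature-sensitive SV40 T-antigen gene. Total RNA of 3 cultures was measured, 1 array per culture, with no treatment in any of them, and the RNA served to find which genes the line expresses before RNAi. All 3 were grown in DMEM with heat-inactivated serum and antibiotics and scraped into lysis buffer. Of the 48 h group (n = 2), the low-seeded culture was started from 375000 cells per well and had an RNA integrity number of 9.6, and the high-seeded culture was started from 750000 cells and had a number of 10.0. The 24 h group held 1 culture, started from 1000000 cells, with a number of 9.5. Between the 24 h and 48 h groups harvest time and seeding changed together, so the 2 cannot be told apart, nor can either from the array itself. Seeding also differed within the 48 h pair, so the spread of that pair includes a seeding difference. Every SD given here is over all 3 cultures and includes the difference in harvest time as well. Whether the cultures were separate passages of the line is not given in the sources used here, so p-values measure only the spread between these samples. Wherever 3 signals are listed, the order is low-seeded 48 h, high-seeded 48 h, 24 h.

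The nuclear pore is a ring of nucleoporins set in the nuclear envelope, with a Y-shaped coat complex, an inner ring, a channel of phenylalanine-glycine repeat proteins, cytoplasmic filaments and a nuclear basket. Proteins too large to diffuse pass it on receptors: importin alpha adapters and importin beta family receptors carry cargo in, and exportins carry it out. The small GTPase Ran gives direction, since RCC1 loads it with GTP on chromatin and RANGAP1 has it hydrolyse GTP on the cytoplasmic side.

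RefSeq promoter windows (GRCh38.p14, 250 bases before to 50 after the start) matched 51 of the 57 genes. KPNA4, KPNA5, KPNB1, NUP43, RANBP1 and XPO7 had no entry. Shown are 3 stretches, each the 250 bases upstream of the start on the + strand, so that the motif letters counted here can be read in place for the GTPase itself, its exchange factor and a Y complex member. Capitals mark the motif letters found: CACGTG for RAN at chr12:130871816-130872065, an NRF1 and an ETS element for RCC1 at chr1:28505793-28506042, and a pair of overlapping NRF1 elements, an ETS element and a CCAAT box for NUP107 at chr12:68686728-68686977.
RAN promoter: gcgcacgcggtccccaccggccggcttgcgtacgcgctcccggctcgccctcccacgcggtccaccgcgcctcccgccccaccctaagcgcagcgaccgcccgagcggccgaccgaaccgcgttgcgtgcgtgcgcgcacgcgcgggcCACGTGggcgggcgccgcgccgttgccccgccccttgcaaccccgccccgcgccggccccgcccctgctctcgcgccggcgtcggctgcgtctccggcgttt
RCC1 promoter: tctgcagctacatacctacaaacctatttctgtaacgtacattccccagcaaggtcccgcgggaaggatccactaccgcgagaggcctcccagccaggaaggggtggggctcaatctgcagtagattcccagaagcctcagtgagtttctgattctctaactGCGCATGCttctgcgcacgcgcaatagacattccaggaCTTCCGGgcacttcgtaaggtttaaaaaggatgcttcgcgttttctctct
NUP107 promoter: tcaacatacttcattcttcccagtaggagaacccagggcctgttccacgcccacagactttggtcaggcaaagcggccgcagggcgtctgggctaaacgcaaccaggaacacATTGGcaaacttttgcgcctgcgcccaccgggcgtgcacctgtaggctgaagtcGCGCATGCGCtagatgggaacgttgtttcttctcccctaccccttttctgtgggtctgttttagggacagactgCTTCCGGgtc

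The ETS element CCGGAAG, on either strand, lay in 17 of the 51 windows (33.3%), those of NUP107, NUP37, NUP160, SEC13, NUP35, NUP54, NUP58, NUP88, NUP214, NUP50, POM121, RCC1, NXT1, IPO4, TNPO3, XPO6 and XPOT. It lay in 14.2% of the 15842 windows of protein-coding genes and in 21.3% of the 8300 windows of genes above background in these cells. The NRF1 element GCATGCGC, on either strand, lay in 6 windows (11.8%), those of IPO11, NUP107, NUP50, NUP62, RANBP3 and RCC1, beside 4.26% of protein-coding windows and 6.14% of those of genes above background. The CCAAT box, as CCAAT on either strand, lay in 22 windows (43.1%, beside 36.4% and 38.2%), and the palindromic E-box CACGTG in 7 (13.7%, beside 8.88% and 10.9%). TATAAA, on either strand, lay in the windows of IPO11 and KPNA6 (3.92%, beside 9.63% and 4.73%). The paired heat shock units GAANNTTC lay in those of NUP160 and TNPO1 (3.92%, beside 5.56% and 4.31%). Median GC content was 63.3% in the members' windows and 62.7% in protein-coding ones. No motif's letters contain another's, the NRF1 matches of NUP107 share letters with one on each strand, and these counts describe letters in a window, not binding.

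Above background meant a MAS5 signal, an intensity on a linear scale, higher on each of the 3 arrays than the 95th percentile of 217 reference probe sets of tissue-restricted genes. That threshold was 117.0 on the low-seeded 48 h array, 129.7 on the high-seeded 48 h array and 101.4 on the 24 h array. Of the 165 members, 143 (86.7%) were above background, where the share over all probe sets was 36.9% and over probe sets listed for 1 gene 43.2%. By gene, 55 of the 57 (96.5%) had at least 1 probe set above background, beside 50.2% of all genes on the array. At the 99th percentile of the reference, a threshold of 2301 to 3064, 49 probe sets and 30 genes were above it. Labels were checked with 7 markers of HEK-293 cells, of which 6 were above background (VIM, KRT8, KRT18, NEFL, NEFM and EYA1, not PAX2), and with 10 markers of blood, endothelial, liver, muscle and fibroblast cells, of which COL1A1 alone was, by 1 of its 5 probe sets.

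**Figure D1:**
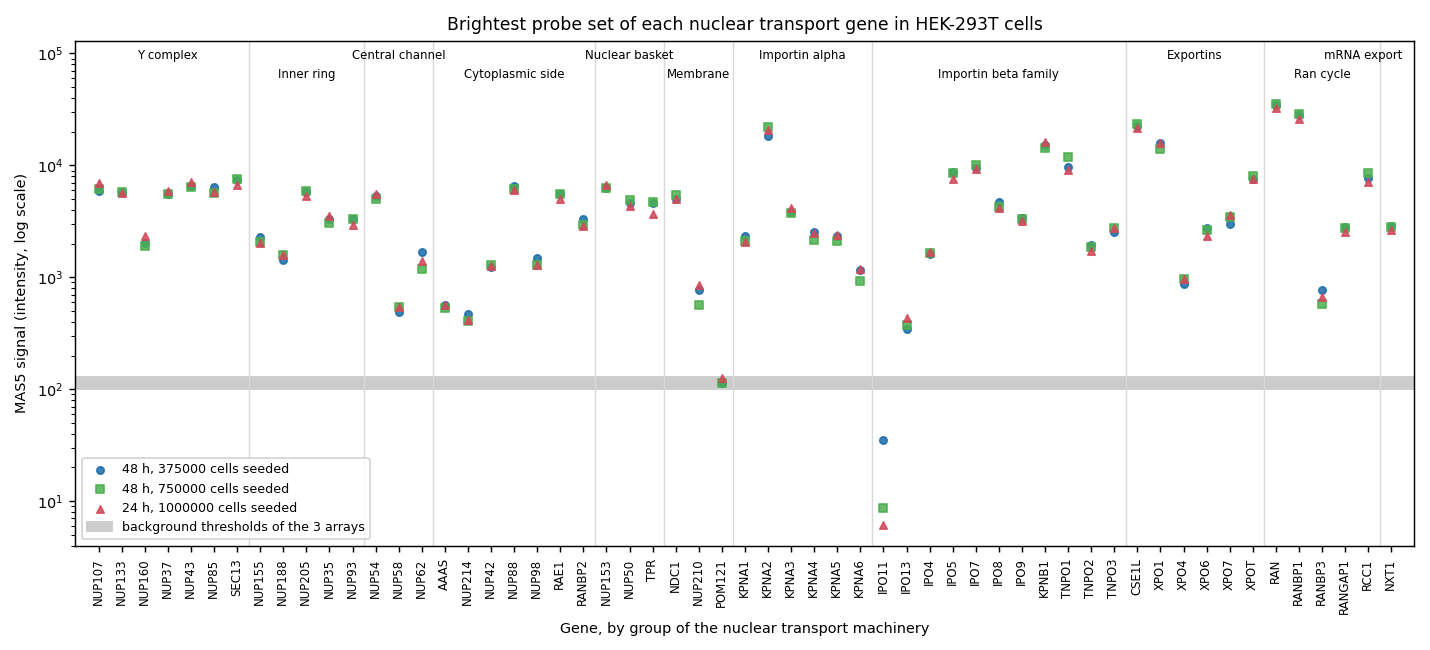
MAS5 signal (log axis) of the brightest probe set of each of the 57 genes, by group, with 1 symbol per culture and the 3 background thresholds as a grey band from 101.4 to 129.7. IPO11 lies below the band and POM121 inside it, while the other 55 genes lie above it. Signals of different probe sets have no common scale, so heights compare cultures within a gene and not genes with each other.

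The pore scaffold was above background throughout its Y complex, with all 12 probe sets of the 7 genes NUP107, NUP133, NUP160, NUP85, NUP37, NUP43 and SEC13. NUP107, a core unit of that complex, gave 5957, 6148 and 6964 with probe set 218768_at. SEC13, which also coats COPII vesicles, gave 7342, 7509 and 6618. Means of the brightest probe set ran from 2093 ± 203.4 (SD, n = 3) for NUP160 to 7156 ± 473.6 (SD, n = 3) for SEC13. Of the inner ring, which anchors the coat to the membrane and the channel, 7 of 9 probe sets were above background, with all 5 genes represented. NUP93, its linker, gave 3353, 3333 and 2934 with 202188_at, and NUP205 gave 5813, 5911 and 5326 with 212247_at. Among its other brightest probe sets, means were 2121 ± 133.5 (SD, n = 3) for NUP155, 1527 ± 80.9 for NUP188 and 3279 ± 239.2 for NUP35. NUP107 218768_at was highest at 24 h, while SEC13 207707_s_at, NUP93 202188_at and NUP205 212247_at were lowest there, and limma called none of them. The other probe set of NUP205, 222382_x_at, was highest at 24 h with 324.2, 391.6 and 462.2 (log2 difference 0.36, SE 0.26, limma adjusted p = 0.735).

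The channel proteins NUP54, NUP58 and NUP62, whose repeats bind the receptors, had 7 of 10 probe sets above background. NUP54 gave 5380, 5034 and 5603 with 218256_s_at. NUP62 gave 1692, 1191 and 1390 with 202153_s_at, where the 2 cultures of 48 h lay on either side of the 24 h one. NUP58 gave 489.0, 543.7 and 542.4 with 225047_at. The 3 membrane genes had 7 of 8 probe sets above background: NDC1, a transmembrane anchor of the pore, gave 5015, 5416 and 4966 with 234672_s_at, and NUP210, another one, gave 768.4, 570.7 and 850.5 with 213947_s_at. With this probe set of NUP210 the high-seeded culture was the low one of the 3, as with 212316_at and 220035_at. With 212315_s_at and 213945_s_at of the same gene it was the high one.

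On the cytoplasmic side, 15 of 17 probe sets of 7 genes were above background. NUP88, the partner of NUP214 in the filaments, gave 6496, 6203 and 6006 with 202900_s_at. RAE1, an mRNA export factor that binds NUP98, gave 5569, 5606 and 5053 with 201558_at. RANBP2, the large filament protein that binds Ran and SUMO-modified RANGAP1, gave 3310, 2929 and 2848 with 201713_s_at. In all 3 of these the 24 h signal was the lowest, a position that 35.5% of all tested probe sets had, and limma called none. Over the group's 15 tested probe sets, the 24 h signal was lowest in 8, highest in 2 and between the 48 h signals in 5. Mean signals of the brightest probe set of the other 4 genes were 1359 ± 122.5 (SD, n = 3) for NUP98, 1267 ± 20.8 (SD, n = 3) for NUP42, 554.1 ± 21.6 (SD, n = 3) for AAAS and 434.2 ± 35.3 (SD, n = 3) for NUP214. The basket genes had 11 of 14 probe sets above background: NUP153 gave 6247, 6285 and 6627 with 202097_at, NUP50, which also helps unload importin alpha, gave 4577, 4948 and 4338 with 213682_at, and TPR, the coiled-coil basket filament, gave 4603, 4752 and 3663 with 201731_s_at.

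All 6 importin alpha genes were above background, by 21 of 22 probe sets. KPNA2, an adapter that binds the nuclear localization signal, gave 18134, 22138 and 20505 with 211762_s_at. The brightest probe sets of the others had means from 1089 ± 136.9 (SD, n = 3) for KPNA6 to 3914 ± 205.3 (SD, n = 3) for KPNA3. The importin beta family had 36 of 42 probe sets above background and 10 of 11 genes. KPNB1, the receptor that importin alpha adapters ride on, gave 15182, 14342 and 16230 with 213507_s_at. TNPO1, which carries M9-type signals, gave 9617, 12003 and 9145 with 221829_s_at, so that the high-seeded culture was the high one. IPO7 gave 9475, 10007 and 9264 with 200992_at, and IPO13, a receptor that also exports, 345.4, 376.8 and 431.1 with its single probe set. The brightest probe sets of the 10 genes had means from 384.4 ± 43.4 (SD, n = 3) for IPO13 to 15252 ± 946.1 for KPNB1, with 1645 ± 38.1 for IPO4, 8237 ± 608.7 for IPO5, 4373 ± 287.8 for IPO8, 1847 ± 128.1 for TNPO2 and 2695 ± 137.7 for TNPO3 among them.

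Exportins had 13 of 16 probe sets and all 6 genes above background. CSE1L, which returns importin alpha to the cytoplasm, gave 22319, 23254 and 21744 with 201112_s_at. XPO1, the receptor of leucine-rich export signals, gave 16000, 14114 and 15954 with 208775_at, where the high-seeded culture was the lowest. XPOT, the tRNA exportin, gave 7594, 8100 and 7508 with 212160_at. XPO4, XPO6 and XPO7 had brightest probe sets with means of 934.4 ± 55.9, 2583 ± 215.1 and 3357 ± 314.8 (SD, n = 3). For mRNA export, NXT1, the partner of NXF1, gave 2862, 2818 and 2642 with its single probe set.

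RAN itself gave 34475, 35244 and 32619 with 200750_s_at and 6124, 6147 and 5701 with 200749_at. RCC1 gave 7723, 8636 and 7066 with 206499_s_at, and RANGAP1 gave 2804, 2747 and 2537 with 1553535_a_at. RANBP3, a cofactor of XPO1, gave 762.8, 579.9 and 672.3 with 202639_s_at. Of the 14 probe sets of the Ran cycle 13 were above background, 208272_at of RANBP3 being the other one. In RAN, RCC1 and RANGAP1 the 24 h culture had the lowest of the 3 signals with the probe sets named here. RCC1 215747_s_at ran the other way with 2227, 2446 and 2603. Over the group's 13 tested probe sets, the 24 h signal was lowest in 8 and highest in 3, beside 35.5% and 35.1% of all tested.

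**Figure D2:**
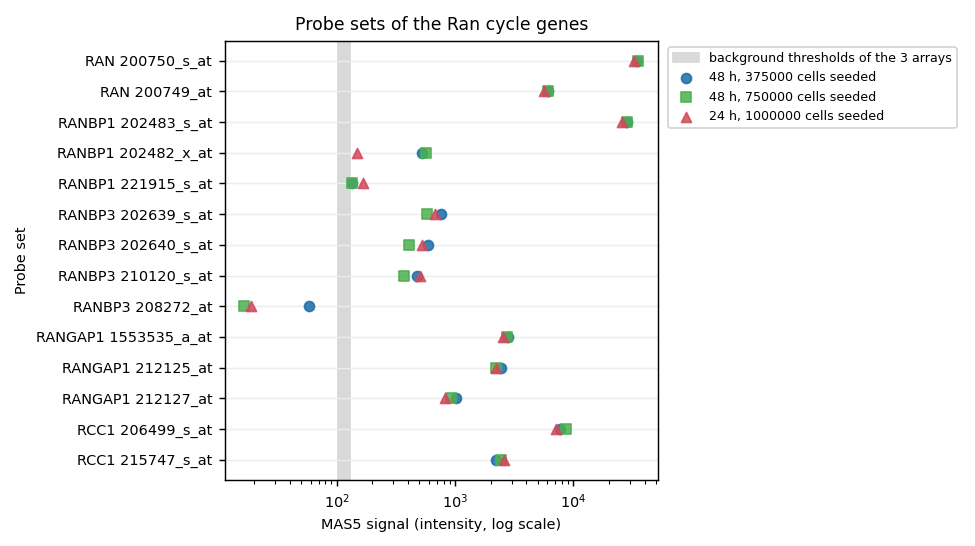
MAS5 signal (log axis) of the 14 probe sets of the 5 Ran cycle genes, 1 symbol per culture, with the thresholds of the 3 arrays as a grey band. RANBP1 202482_x_at is the 1 probe set whose 24 h symbol (147.8) stands well to the left of both 48 h symbols (520.5 and 570.2), and RANBP3 208272_at is left of the band.

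Signals of the members above background had a median coefficient of variation over the 3 cultures of 7.39% (1.12% to 55.9%, n = 143). For all 20158 probe sets above background, not matched to the members for brightness, it was 10.2%. The lowest among members was that of KPNB1 208974_x_at, with 10935, 10906 and 11132. The highest was that of RANBP1 202482_x_at. With 3 arrays, every SD given here is itself imprecise.

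Both genes without a probe set above background had a single probe set of their own. For IPO11, an import receptor for a ubiquitin-conjugating enzyme, 1557770_at gave 35.3, 8.65 and 6.08, under the threshold on all 3 arrays. For POM121, a transmembrane nucleoporin, 205096_at gave 113.7, 113.5 and 125.9, above the threshold on the 24 h array alone. Other probe sets were listed for these genes together with a neighbour or copy and were therefore no members. Those listed for IPO11 and the read-through gene IPO11-LRRC70 gave 2059, 2211 and 1779 (222659_at) and 1356, 1345 and 1829 (234304_s_at), and 1 listed for POM121 and its copy POM121C gave 4231, 4102 and 3720 (213360_s_at). NUTF2, the carrier that brings Ran back into the nucleus, was listed together with NUTF2P4 and gave 5005, 5393 and 4923 (202397_at) and 385.0, 684.2 and 512.6 (228379_at). Of 8 such shared probe sets 5 were above background, and their signals cannot be divided between the genes listed.

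Probe sets of 1 gene often lay on different sides of the threshold. Of the 57 genes, 12 had 1 probe set and 45 had several, up to 10 for TNPO1. In 39 genes all probe sets were above background, in 2 none was, and in 16 some were and some were not. NUP88 gave 6496, 6203 and 6006 with 202900_s_at but 8.12, 10.4 and 11.9 with 214192_at. RAE1 gave 3585, 3622 and 2965 with 211318_s_at but 5.34, 19.0 and 35.9 with 211319_at. For these and other genes, 1 probe set was far above the threshold and another near the reference median (18.7, 25.3 and 17.9 on the 3 arrays). NUP54 had 231301_at at 2.24, 50.4 and 42.8 and 215213_at at 8.59, 7.89 and 21.9 beside its bright 218256_s_at. NUP93 had 241758_at at 2.76, 29.0 and 6.14, XPO1 had 244012_x_at at 76.1, 80.6 and 30.8, and TNPO1 had 3 of 10 below, among them 1556116_s_at at 11.7, 17.9 and 26.9. The other genes with both kinds were CSE1L, NUP153, XPO7, TNPO2, KPNA4, NUP62, NUP50, RANBP3, IPO9 and NUP188.

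In most of these other genes the probe set not above background was below the threshold on all 3 arrays. NUP153 239948_at gave 62.7, 52.9 and 68.0, and its 1559064_at gave 38.9, 51.3 and 28.7. XPO7 240168_at gave 19.1, 41.4 and 66.2, and TNPO2 215844_at gave 23.9, 29.1 and 17.0. KPNA4 1558383_at gave 47.5, 41.7 and 33.4, and NUP62 236505_at gave 29.3, 37.8 and 15.4. The high-seeded culture was neither always the highest nor always the lowest of the 3. RANBP3 208272_at gave 58.5, 16.6 and 18.9, and the remaining probe sets of TNPO1 gave 61.4, 37.5 and 51.8 (243324_x_at) and 5.39, 50.3 and 4.01 (1557278_s_at). NUP188 214675_at, with 142.3, 59.7 and 108.0, missed the threshold on the high-seeded array alone.

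**Figure D3:**
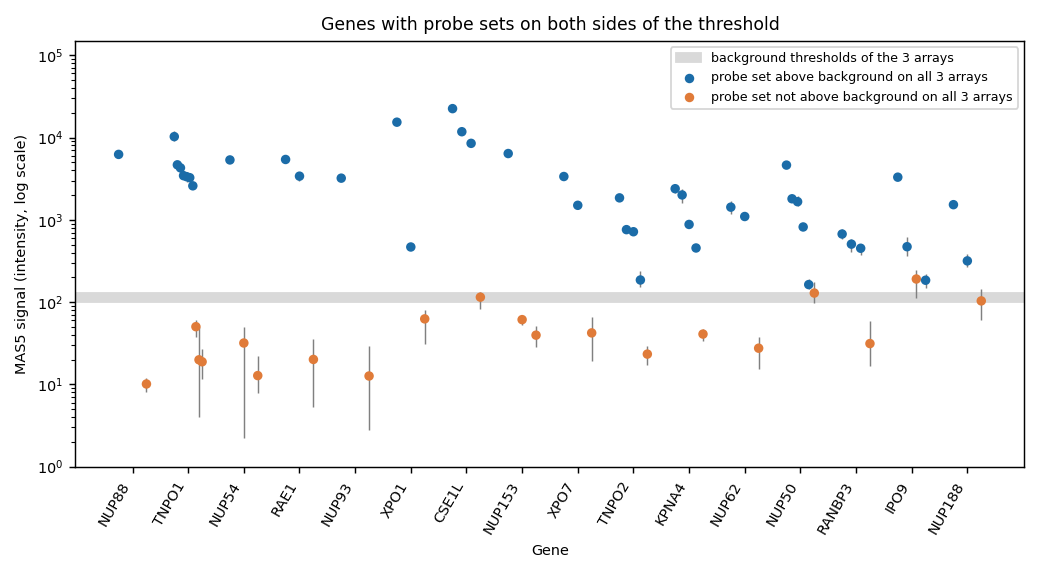
Mean MAS5 signal (log axis) of each probe set of the 16 genes that had probe sets on both sides, with bars from the lowest to the highest of the 3 cultures and the thresholds as a grey band. NUP88, at the left, has 1 probe set at a mean of 6235 and another at 10.1, and TNPO1 has 7 above and 3 not above background.

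The 22 members not above background were mostly of 1 design. A suffix _at marks a probe set meant for 1 transcript, _s_at 1 shared by transcripts of a gene or close family, and _x_at 1 with probes that may bind unrelated sequence. Above background were 73 of 89 _at members (82.0%, beside 36.8% of all 1-gene _at probe sets), 60 of 62 _s_at members (96.8%, beside 61.2%) and 9 of 13 _x_at members (69.2%, beside 49.7%). All 41 members designed on a curated RefSeq transcript were above background, where the share over all 1-gene probe sets of that kind was 52.2%. Of the other 124 members 102 were (82.3%, beside 40.5%). So the 22 below background held 16 _at probe sets and 0 designed on a RefSeq transcript.

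Some members lay near the threshold. RANBP1 221915_s_at was just above with 135.4, 133.3 and 166.4, at 1.03 times the threshold on its nearest array, followed by NUP214 211261_at with 124.8, 186.9 and 175.2, NUP160 214963_at with 174.6, 146.6 and 203.2, and IPO9 242561_at with 183.7, 148.8 and 220.3. Just outside lay POM121 205096_at, IPO9 244703_x_at with 215.2, 112.6 and 244.5, NUP50 218293_x_at with 177.5, 97.7 and 110.9, and CSE1L 210765_at with 81.6, 129.0 and 133.9. Each of these 4 exceeded the threshold on 1 or 2 of the arrays.

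The 24 h culture was set against the 48 h pair to see how far expression of the transport genes varied between cultures. In bulk RNA, fewer cells expressing a gene and less RNA per cell cannot be told apart. By limma on log2(signal + 21.6), 21940 probe sets bright enough to test gave 70 calls (0.319%) at an adjusted p under 0.05, of which 16 were lower at 24 h (0.0729%) and 54 higher. With arrays scaled to equal medians there were 9 calls, 5 lower and 4 higher. Of 146 members tested, 1 was called, lower at 24 h, and 0 were called higher. At an unadjusted p under 0.05 there were 15 (5 higher and 10 lower), a share of 10.3% beside 9.50% of all probe sets tested. The log2 difference, 24 h minus 48 h, lay within 0.5 of 0 for 144 of the 146, beside 91.4% of all tested, unmatched for brightness. Its median size was 0.136, beside 0.16 over all tested. The 2 cultures of 48 h differed from each other by a median of 0.127, beside 0.155 over all tested. The first measure sets 1 array against the mean of 2 and the second 1 array against 1, so their sizes are not directly comparable.

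The member called was RANBP1 202482_x_at, a probe set for the Ran binding protein that helps RANGAP1 release Ran from receptors. Its signals were 520.5 and 570.2 at 48 h and 147.8 at 24 h, so the 24 h value was well outside the 48 h pair but still above background. The log2 difference was -1.74 (SE 0.27, limma adjusted p = 0.00595). Under the other alternatives the limma adjusted p ran from 0.000269 to 0.00767. Without the mean-variance trend the limma adjusted p was 0.746, and no probe set on the array was called. The other probe sets of RANBP1 did not show that difference: 202483_s_at gave 28250, 28538 and 25826 (log2 difference -0.14, SE 0.10, limma adjusted p = 0.715), and 221915_s_at was higher at 24 h by 0.27 (SE 0.41, limma adjusted p = 0.909). Which transcripts the called probe set binds was not tested.

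In the main setting the log2 differences of the family lay more often below 0 than above. That direction depended on array scaling, and the size of the median also on 1 of the 48 h arrays. With equal-median scaling the medians of the members and of all tested probe sets both rose, and that of the members was no longer below 0. Of the 146 members 85 were lower and 61 higher at 24 h (58.2% lower, beside 49.2% of all tested), with a median log2 difference of -0.0445 beside 0.00439 over all tested. Without the low-seeded 48 h array the members' median was -0.0173, and without the high-seeded one -0.0441. For 69 members (47.3%) the 24 h signal was below both 48 h signals, a position that 35.5% of all tested probe sets had, and for 48 (32.9%) it was above both, beside 35.1%. When arrays were scaled to equal medians, the first of these shares fell to 26.7% beside 23.9% of all tested, and the median became 0.0084 beside 0.0555 over all tested. The array medians were 71.0, 80.3 and 72.8.

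**Figure D4:**
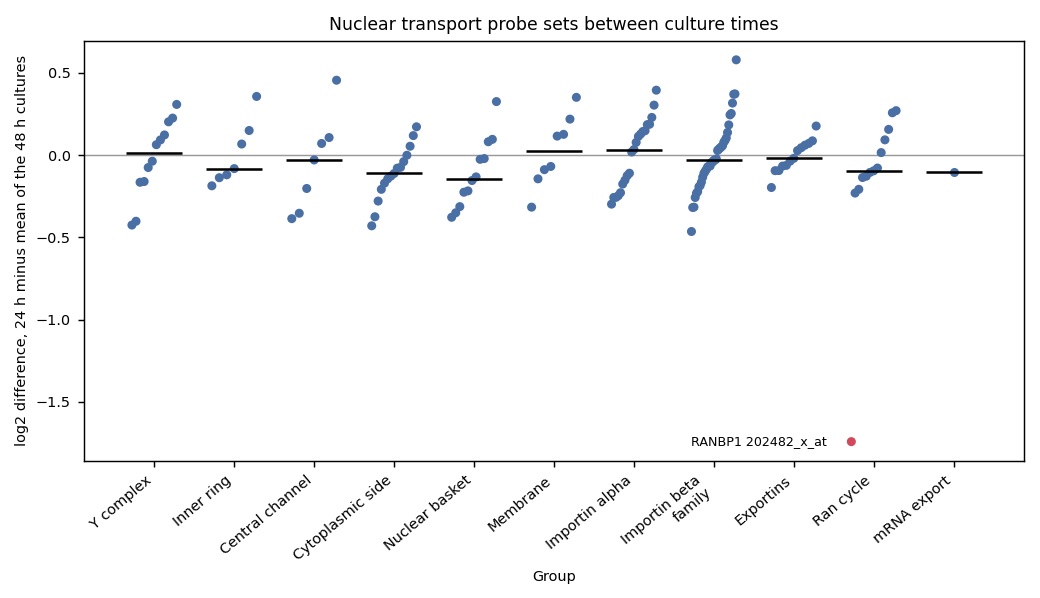
Log2 difference (24 h minus the mean of the 48 h cultures) of the 146 members tested, 1 dot per probe set, by group, with the group median as a black bar. RANBP1 202482_x_at, in red, lies at -1.74, and all other dots lie between -0.46 and 0.58.

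In the main setting 49.2% of all tested probe sets were lower at 24 h. Among groups of more than 1 tested probe set, that share was highest on the cytoplasmic side, with 12 of 15 and a median of -0.11. The nuclear basket followed, with 9 of 12 and a median of -0.14. The mRNA export group had the single probe set of NXT1, at -0.10. In the Ran cycle 8 of 13 were lower, with a median of -0.10. The Y complex was split 6 and 6, with a median of 0.01, and importin alpha had 9 of 21 lower and a median of 0.03. The importin beta family (21 of 37, median -0.03), the exportins (7 of 13, -0.02), the channel (4 of 7, -0.03), the inner ring (4 of 7, -0.08) and the membrane genes (4 of 8, 0.02) lay between. Apart from RANBP1 no group held a called probe set. These group counts were not made with equal-median scaling, which moved the median of all members from -0.0445 to 0.0084.

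The basket and filament genes illustrate the size of these differences. TPR 201731_s_at gave 4603, 4752 and 3663, with the 24 h signal below both (log2 difference -0.35, SE 0.10, limma adjusted p = 0.183), and 201730_s_at gave 3119, 3890 and 2675 (-0.38, SE 0.12, limma adjusted p = 0.275). TPR 215220_s_at, however, gave 1395, 944.9 and 1228, where the 24 h signal lay between the other two. RANBP2 201712_s_at gave 1487, 1260 and 1010 (-0.43, SE 0.15, limma adjusted p = 0.322), and the other 3 probe sets of the gene had differences from -0.21 to -0.04. NUP98 203195_s_at gave 655.3, 736.0 and 530.6 (-0.37, limma adjusted p = 0.588). None of these passed the test.

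In the Y complex, NUP133 233421_s_at gave 3009, 3346 and 2396 (-0.40, SE 0.11, limma adjusted p = 0.17), whereas 202184_s_at of the same gene gave 5749, 5771 and 5611. NUP43 238474_at gave 676.4, 798.0 and 541.6 (-0.43, limma adjusted p = 0.508), and 219007_at gave 6478, 6451 and 7037, which is in the other direction. In the channel, NUP58 223984_s_at gave 325.0, 262.4 and 408.3 (0.45, limma adjusted p = 0.672) and 241425_at gave 204.4, 286.0 and 180.1 (-0.39, limma adjusted p = 0.801). Probe sets of NUP43 and of NUP58 thus differed in sign at small sizes, while those of NUP133 shared a sign and differed in size.

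Among the receptors, IPO9, an importin for histones and actin, had 3 of the 12 largest differences, with both signs, and each moved by over 1.5 times when 1 of the 48 h arrays was left out. Its 213785_at gave 617.2, 428.6 and 367.0 (-0.46, limma adjusted p = 0.607), 244703_x_at was at 0.58 (limma adjusted p = 0.718) and 242561_at at 0.37 (limma adjusted p = 0.829), while the bright 217885_at gave 3384, 3340 and 3163. KPNA4 225267_at, of an importin alpha adapter, gave 1613, 2020 and 2379, with the 24 h signal above both (0.39, SE 0.14, limma adjusted p = 0.32). RAN was at -0.10 (SE 0.10, limma adjusted p = 0.83) with 200750_s_at, a sign that turned with quantile normalization, and at -0.11 (limma adjusted p = 0.798) with 200749_at.

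Of 41 genes with at least 2 tested probe sets, 23 had differences of both signs. In 12 all were lower at 24 h, namely IPO5, IPO8, NDC1, NUP133, NUP62, NUP98, RAE1, RAN, RANBP2, RANGAP1, XPO6 and XPOT, and in 6 all were higher, namely KPNA2, KPNA4, NUP37, RANBP3, XPO1 and XPO4. IPO5, a receptor for ribosomal proteins and histones, had 5 probe sets with differences from -0.26 to -0.03, and KPNA4 had 4 from 0.08 to 0.39. Probe sets of a gene share their RNA and are not replicates of a culture. These counts by gene were not made over all genes of the array, nor with equal-median scaling. That scaling moved the members' median from -0.0445 to 0.0084, so the sign of small differences depended on it.

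A wider list of nuclear transport and envelope genes held lamins, LINC proteins, THO and SUMO factors and further receptors. Of its 95 probe sets 67 were above background (70.5%, beside 36.9% of all probe sets). By gene, 35 of 40 had such a probe set (87.5%, beside 50.2% of all genes). The 5 without one were NXF3 and NXF5, which are mRNA export paralogs, NUP210L, the LINC protein SYNE1 and the helicase DDX19B. SYNE1 had 5 probe sets, none above 94.0 on any array. DDX19B gave 173.2, 142.2 and 34.0 with 230974_at, above the threshold on both 48 h arrays and below it at 24 h. In the comparison of culture times 68 probe sets of the list were tested, 31 higher and 37 lower, and 1 was called, PHAX 234405_s_at, of the export adapter for small nuclear RNA, with 1099, 1208 and 1901 (log2 difference 0.71, SE 0.14, limma adjusted p = 0.0337). Over the whole array 70 of 21940 tested probe sets were called (0.319%), 54 of them higher at 24 h. PHAX 234405_s_at was the high one at 24 h, above both 48 h signals, a position that 35.1% of all tested had. Without the mean-variance trend no probe set on the array was called, PHAX included. PHAX was not among the probe sets followed under the other alternatives. With equal medians the calls higher at 24 h over all probe sets fell from 54 to 4.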

How the data were processed

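The authors hybridised total RNA of 3 HEK-293T cultures, each to its own Affymetrix U133 Plus 2.0 array. The deposited values are MAS5 signals (GCOS 1.0 in the submitters' processing notes), an intensity on a linear scale, which the authors brought to a common trimmed mean (500.1 on each array with 2% left off at either end). Absent/present calls and the reporter and RNAi data were not used here.

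The platform annotation gave each probe set its gene, with symbols updated by gene ID: 41097 had 1 gene, 1801 several and 11777 none, and probe sets with several genes named no member. The background threshold of an array was the 95th percentile of 217 probe sets of 159 tissue-restricted genes, 127 of these probe sets for olfactory and bitter taste receptors, and all 3 thresholds had to be passed. Of the reference, 6 were themselves above background (3 of KRT10, and TNNI3, CRYGD and OLIG2).

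For the 24 h culture against the 48 h pair, limma 3.58.1 (lmFit and eBayes with a mean-variance trend, R 4.3.3) was run on log2(signal + 21.6), where 21.6 is the reference's median signal. Tested were 21940 probe sets whose mean log2 signal, without the added value, was above the log2 of 116.1, the mean threshold. Any of the 62 control probe sets were included where bright enough, and p-values were adjusted over all tested probe sets (Benjamini-Hochberg). The added value makes differences of dim probe sets look smaller. With 1 residual degree of freedom per probe set, the p-values lean on a spread estimated over all probe sets together and may be too small. The scripts were tested on simulated data. Promoter windows came from the RefSeq annotation of GRCh38.p14 and were searched with Python 3.11.15, pandas 2.3.3 and numpy 2.4.6.

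Members, groups and gene lists were chosen with earlier results of these data known. Values are given for called members, all probe sets of RAN and RANBP1, the 12 largest differences, genes and probe sets not above background, the 6 widest gaps between probe sets of a gene, the 4 members nearest the threshold on either side and the brightest probe set of each gene, as a range in groups of over 4 genes, where the genes singled out, and DDX19B, PHAX and NUP205 222382_x_at, were chosen after their values were seen. Alternatives were other percentiles and references, 2 arrays sufficing, no _s_at and _x_at probe sets, quantile normalization, equal medians, another added value, no filter, no trend and each array left out.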

Additional observations from a re-analysis of the deposited data

How the results depend on the processing

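Counts above background depended on the percentile of the reference. At its 99th percentile 49 probe sets and 30 genes were above background in place of 143 and 55. Without KRT10 in the reference, an alternative chosen after seeing the data, the 99th percentile left 130 probe sets and 55 genes. Without _s_at and _x_at probe sets, 74 of the remaining 90 were above background, with 42 of 48 genes. That setting left fewer probe sets to count. Of the members taken out, 96.8% of the _s_at and 69.2% of the _x_at probe sets had been above background. The other settings, each array left out among them, gave 143 to 146 probe sets and 55 or 56 genes.

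In the comparison of culture times, the members called lower at 24 h went from 1 to 0 without the mean-variance trend, where 0 probe sets on the whole array were called by limma and 1360 passed an unadjusted p under 0.05. With equal medians the median log2 difference of members was 0.0084 in place of -0.04, beside 0.0555 in place of 0.00439 over all tested. The 24 h signal was below both 48 h signals in 39 members in place of 69, beside 23.9% in place of 35.5% of all tested. RAN 200750_s_at turned from -0.0957 to 0.0519 with quantile normalization. Leaving out either 48 h array, which leaves values with no test, kept the sign of all 16 named probe sets and moved 6 of them by over 1.5 times: IPO9 244703_x_at was then 0.17 or 0.99, IPO9 213785_at -0.21 or -0.72, IPO9 242561_at 0.24 or 0.51, NUP58 241425_at -0.16 or -0.61, KPNA4 225267_at 0.23 or 0.55 and TPR 201730_s_at -0.22 or -0.54. The median of members was then -0.0173 or -0.0441. Of 96 tested values of the named probe sets under the other alternatives, 94 kept their direction and side of the threshold. Of the rest, 1 lost its call (RANBP1 202482_x_at without the trend) and 1 reversed (RAN), and the causes were not tested. Only RANBP1 202482_x_at was called in the main setting, so for the other named probe sets keeping their side meant staying uncalled. Calls over all probe sets were 70, beside 88 without a filter, 85 with quantile normalization, 9 with equal medians (4 higher and 5 lower, beside 54 and 16), and 68 and 76 with added values of 1 and 100.

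Signals near the threshold limit which probe sets can be called, the lone 24 h array gives no spread of its own, and no paired analysis was possible because the 24 h group held 1 culture and the labels pair no cultures.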
